A study of Mus musculus with 8 samples.

Results

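Glucocorticoid receptor signalling was followed through 9 transcripts, those of the receptor gene Nr3c1, of the activating enzyme gene Hsd11b1, and of the responsive genes Fkbp5, Tsc22d3, Zbtb16, Sgk1, Klf9, Mt1 and Mt2. The genes were taken by their symbols out of 22609 in the deposited count files. They are known glucocorticoid-related genes, chosen by their CPM (counts scaled to library size) in each library and by how they varied together over the 8 libraries. The p-values of the members make no allowance for that choice. All 9 passed the filter on low counts, as did 14790 genes in all. The libraries came from paw tissue of C57BL/6J mice, 4 female and 4 male, all labelled as given prolactin (PRL), the pituitary hormone best known for lactation. The labelled dose was 0.1 µg for 12 days, which the labels' protocol describes as 1 intraplantar injection per day, that is, into the sole of the paw. The sources used here give no age for the mice, and no library without prolactin was analysed here. The values therefore describe females and males under prolactin, with no untreated background. The labels do not state that each library came from a separate animal. The p-values set the difference between the sexes against the variation between these libraries, and treat the libraries as independent.

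Glucocorticoids enter cells and bind the glucocorticoid receptor, which heat shock protein 90 and its partners hold ready in the cytoplasm. The bound receptor moves to the nucleus, where it attaches to DNA and induces or represses target genes. Inside the tissue the enzyme encoded by Hsd11b1 regenerates the active hormone (corticosterone in mice) from its inactive keto form. In skin and muscle these hormones are known for restraining inflammation, thinning the dermis and promoting muscle wasting.

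Totals of 16753528 to 24993744 counts in genes per library gave the members between 96 and 5346 counts each. Xist, the RNA of the inactive X chromosome, had 27081 to 42136 counts in female libraries and 26 to 39 in male libraries, so the libraries parted as labelled. Muscle transcript varied widely within each sex. The fast muscle score, the mean log2 CPM of 20 fast skeletal muscle genes, was 9.63, 6.72, 0.74 and 7.67 in female replicates 1 to 4, against 7.34, 10.08, 7.98 and 5.03 in male replicates 1 to 4. Summed, those 20 genes held 50.1 to 24414 CPM in females and 1108 to 32897 CPM in males, and none was without counts in any library. Keratinocyte genes (10 of 10 detected) summed to 60098 to 86797 CPM in females and 74386 to 96148 CPM in males. In such bulk tissue, fewer cells of a type and less RNA per cell cannot be told apart.

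Promoter sequences are shown for Sgk1, which carries the full receptor motif, and for the pair of metallothionein genes, whose levels varied together. RefSeq promoters on GRCm38.p6 matched 7 of the 9 members by symbol, and Nr3c1 and Zbtb16 are named only. The 250 bases before each of 14 annotated starts were searched on both strands for the palindromic glucocorticoid response element, which is AGAACA, any 3 bases and TGTTCT. One of the 6 annotated starts of Sgk1 held it, with the first base of the match 189 bases before the start, as did 3 of 32851 such windows in the whole table (0.00913%). A stretch of 55 bases around the match is given on the plus strand at chr10:21993681-21993735, with the element in capitals.
Sgk1: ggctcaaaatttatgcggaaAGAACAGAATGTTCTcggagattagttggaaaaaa
The single arm AGAACA, which the full element contains, was present before 3 of the 6 Sgk1 starts and 1 of the 3 Tsc22d3 starts, against 16.1% of all windows. The core of the metal response element, TGCGCNC or TGCACNC, occurred 3 times before Mt2, 1 time before Mt1 and 1 time before Hsd11b1. It was present in 21.4% of all windows, and 1.26% held at least 3 copies. The windows of Mt1 (chr8:94178839-94179088, plus strand) and Mt2 (chr8:94172368-94172617, plus strand) follow, with the metal core in capitals.
Mt1: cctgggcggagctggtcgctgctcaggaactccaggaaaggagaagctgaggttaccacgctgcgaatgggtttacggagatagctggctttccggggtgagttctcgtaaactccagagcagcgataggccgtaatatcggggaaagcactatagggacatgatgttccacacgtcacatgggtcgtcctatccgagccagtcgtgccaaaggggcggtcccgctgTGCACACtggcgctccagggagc
Mt2: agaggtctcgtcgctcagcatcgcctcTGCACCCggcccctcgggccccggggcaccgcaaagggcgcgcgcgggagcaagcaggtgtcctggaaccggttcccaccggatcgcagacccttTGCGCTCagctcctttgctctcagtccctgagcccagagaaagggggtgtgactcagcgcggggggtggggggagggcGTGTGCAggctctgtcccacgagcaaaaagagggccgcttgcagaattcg
GENCODE M21 lists further transcripts of both genes that begin downstream of these starts, so the windows need not be the promoter used in the paw. A match is a run of letters, and says nothing of binding.

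**Figure D1:**
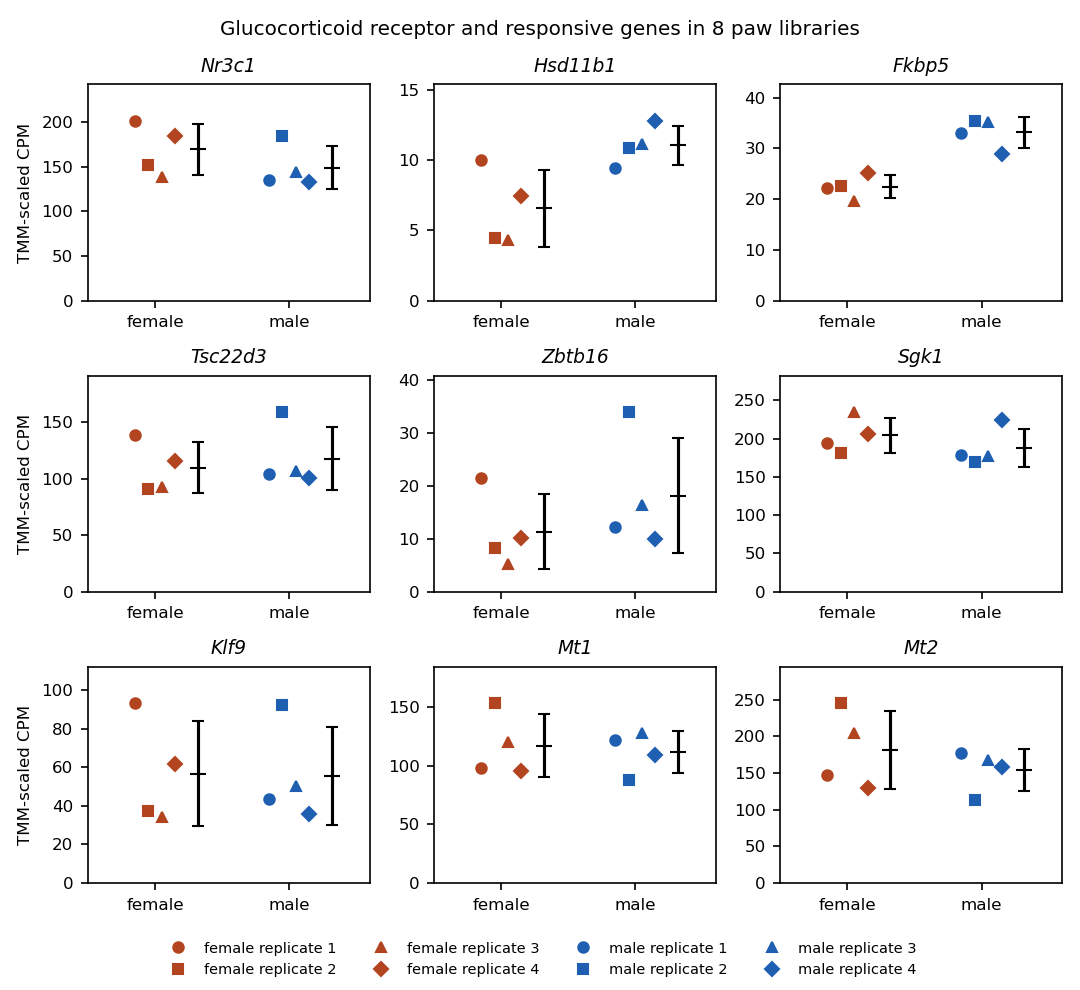
Level of each member in the 8 libraries (y axis, CPM scaled by TMM, a library size correction; every axis starts at 0), females left of males, 1 symbol per replicate, with the mean and SD of each sex in black. Fkbp5 is the only member of the 9 whose sexes do not overlap (19.6 to 25.1 CPM in females, 28.8 to 35.5 CPM in males).

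Among the receptor and its activating enzyme, the receptor overlapped between the sexes and the enzyme was on average lower in females, and neither passed the test. Nr3c1, which encodes the receptor, had 202, 152, 139 and 185 CPM in female replicates 1 to 4, against 135, 184, 145 and 133 CPM in male replicates 1 to 4. The ranges overlapped, with female replicates 1 and 4 and male replicate 2 high. Its log2 fold change, female over male, was 0.18 (SE 0.15, edgeR adjusted p = 0.952). It was 0.085 without female replicate 1, 0.29 without male replicate 2 and 0.37 without female replicate 3 and male replicate 2 together. With the fast muscle score as a covariate it was 0.27 (unadjusted p = 0.0173, edgeR adjusted p = 0.452). Hsd11b1 had 10.02, 4.43, 4.33 and 7.48 CPM in female replicates 1 to 4, against 9.45, 10.9, 11.1 and 12.8 CPM in male replicates 1 to 4. All females except replicate 1 were below all males. Its mean was 6.56 ± 2.73 CPM over the females, against 11.1 ± 1.38 CPM over the males (SD, n = 4 per sex). The log2 fold change was -0.76 with an SE of 0.28. The unadjusted p was 0.0248 in the edgeR test and the adjusted p 0.699. With single libraries left out the log2 fold change ran from -1.04 to -0.60. An unadjusted p under 0.05 was reached by 6.53% of all tested genes.

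Fkbp5, which encodes an immunophilin that holds the receptor in a low-affinity state and is itself induced by it, was lower in every female library than in every male library. It had 22.3, 22.6, 19.6 and 25.1 CPM in female replicates 1 to 4, against 33.1, 35.5, 35.3 and 28.8 CPM in male replicates 1 to 4. Means were 22.4 ± 2.27 CPM over the females, against 33.2 ± 3.09 CPM over the males (SD, n = 4 per sex), and the fitted level in females was 0.675 of that in males. The log2 fold change was -0.57 (SE 0.11), with an unadjusted p of 0.000545 and an adjusted p of 0.179 by edgeR, so it did not pass. DESeq2 called it (log2 fold change -0.58, adjusted p = 0.000344), where it calls 0.651% of the genes with an adjusted p, and limma-voom did not (adjusted p = 0.202). Female libraries lay below male ones without overlap for 1.81% of all tested genes, above them for 2.93%, and apart either way for 4.73%. Left-out libraries gave log2 fold changes of -0.63 to -0.51. With the fast muscle score as a covariate the value was -0.51 (SE 0.09, edgeR adjusted p = 0.101).

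The other responsive genes overlapped between the sexes. Tsc22d3 encodes GILZ, a leucine zipper protein that mediates anti-inflammatory effects of glucocorticoids. It had 139, 91.2, 92.3 and 116 CPM in female replicates 1 to 4, against 104, 159, 107 and 100.3 CPM in male replicates 1 to 4. Female replicate 1 and male replicate 2 were the highest libraries of their sex. The log2 fold change was -0.10 (SE 0.19, edgeR adjusted p = 0.999), and 0.06 without male replicate 2.

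Zbtb16 encodes the zinc finger repressor PLZF, which glucocorticoids strongly induce in several tissues. It had 21.6, 8.36, 5.34 and 10.1 CPM in female replicates 1 to 4, against 12.2, 34.0, 16.5 and 9.94 CPM in male replicates 1 to 4. It was the most variable member, 6.37-fold from the lowest to the highest library, again with female replicate 1 and male replicate 2 on top of their sex. The log2 fold change was -0.68 with an SE of 0.52 (edgeR adjusted p = 0.931). It ranged from -1.20 without female replicate 1 to -0.20 without male replicate 2.

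Klf9 encodes a Krüppel-like transcription factor that glucocorticoids induce in skin. It had 93.3, 37.3, 34.3 and 61.9 CPM in female replicates 1 to 4, against 43.7, 92.1, 50.1 and 35.7 CPM in male replicates 1 to 4. Female replicate 1 and male replicate 2 held nearly equal levels. The log2 fold change was 0.03 (SE 0.40, edgeR adjusted p = 0.999), -0.32 without female replicate 1 and 0.38 without male replicate 2.

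Sgk1 encodes a serum- and glucocorticoid-regulated kinase that acts on ion channels and transporters. It had 194, 182, 235 and 206 CPM in female replicates 1 to 4, against 178, 169.6, 177 and 224 CPM in male replicates 1 to 4. It was the steadiest member, with a 1.39-fold range. The highest library of each sex was female replicate 3 and male replicate 4, the libraries with the lowest fast muscle score of their sex. The log2 fold change was 0.13 (SE 0.12, edgeR adjusted p = 0.985).

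The metallothioneins Mt1 and Mt2 bind zinc and copper and are induced by metals and by glucocorticoids. Mt1 had 97.8, 153, 120.3 and 95.6 CPM in female replicates 1 to 4, against 122, 87.8, 128 and 109 CPM in male replicates 1 to 4. Mt2 had 147, 245, 205 and 129.9 CPM in female replicates 1 to 4, against 178, 113, 168 and 159 CPM in male replicates 1 to 4. For both genes female replicate 2 was the highest of all libraries, female replicate 4 the lowest of the females, and male replicate 2 the lowest of the males. Log2 fold changes were 0.07 for Mt1 (SE 0.18, edgeR adjusted p = 0.999) and 0.24 for Mt2 (SE 0.22, edgeR adjusted p = 0.986). Without female replicate 2 the value of Mt1 was -0.093 and that of Mt2 was 0.058. The ratio of Mt2 to Mt1 counts was 1.54 ± 0.147 in females and 1.38 ± 0.0908 in males (SD, n = 4 each).

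Per kilobase of the principal transcript in GENCODE M21 (by APPRIS), the metallothioneins stood highest. Mt2 had 356 ± 104 CPM per kb in females and 302 ± 56.1 CPM per kb in males, and Mt1 had 213 ± 48.9 CPM per kb in females and 203 ± 32.2 CPM per kb in males (SD, n = 4 each). Sgk1 (83.2 CPM per kb in females, 76.2 in males) and Tsc22d3 (55.5 in females, 59.6 in males) followed. Nr3c1 (26.4 in females, 23.2 in males) and Klf9 (12.6 in females, 12.3 in males) came next. Fkbp5 (5.81 in females, 8.60 in males), Hsd11b1 (4.04 in females, 6.83 in males) and Zbtb16 (2.22 in females, 3.55 in males) were lowest. Neighbours in this order whose levels lay within their SDs of each other were Mt2 and Mt1, Fkbp5 and Hsd11b1, and Hsd11b1 and Zbtb16 in females, and Sgk1 and Tsc22d3 and also Klf9 and Fkbp5 in males. Of the 50-base stretches in the annotated Mt2 transcripts, 45.8% also occur in Gm45774, an antisense gene of the same locus. The sources used here do not say whether counting used strand. For the other 8 members at most 0.736% of such stretches occur in transcripts of other genes.

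In all, edgeR called 0 of the 9 members, against 0.0947% of all tested genes (0.0541% lower and 0.0406% higher in females). An unadjusted p under 0.05 by edgeR was reached by 2 members, Fkbp5 and Hsd11b1, against 6.53% of all tested genes. The sexes did not overlap for 1 of the 9, Fkbp5, against 4.73% of all tested genes in either direction. DESeq2 called 1 member, against 0.651% of the genes with an adjusted p, and limma-voom 0, against 0.108% of all tested genes. Of the 9, 5 lay above 0 and 4 below, with a median log2 fold change of 0.03, beside 52.7% above 0 and a median of 0.01 over all tested genes.

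**Figure D2:**
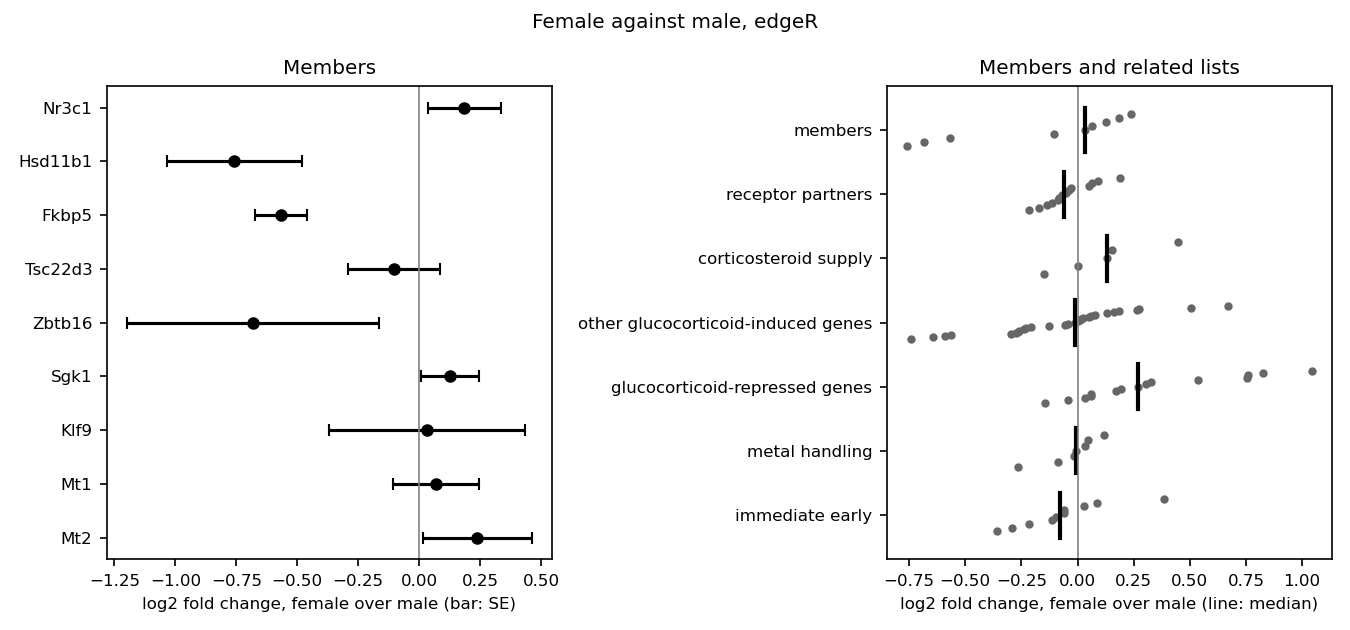
Log2 fold changes, female over male, from the edgeR fit (x axes). Left, each member with its SE. Right, each gene of the members and of 6 related lists as a point and the median of each list as a line. Hsd11b1, Fkbp5 and Zbtb16 lie furthest below 0 among the members, and the glucocorticoid-repressed genes have a median of 0.27 (0.072 without female replicate 4, where corticosteroid supply has 0.12).

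Among the receptor's partners, 14 chaperone, immunophilin and co-regulator genes including the mineralocorticoid receptor gene, 4 lay above 0 and 10 below, with a median log2 fold change of -0.06. Without male replicate 2, 7 of the 14 lay above 0 and the median was -0.015. None was called by edgeR, and 2 of the 14 had an unadjusted p under 0.05 (6.53% of all tested genes). The sexes did not overlap for 1 gene higher and 1 gene lower in females, Ncoa3 and Fkbp4 (4.73% of all tested genes in either direction). Ncoa3, a steroid receptor coactivator, had 95.8 ± 5.37 CPM in females, against 83.9 ± 3.69 CPM in males, with a log2 fold change of 0.19 (SE 0.07) and an edgeR adjusted p of 0.669. Stip1, a co-chaperone that links heat shock proteins 70 and 90, had 83.0 to 88.7 CPM in females, against 85.2 to 103.7 CPM in males (-0.17, SE 0.07, edgeR adjusted p = 0.758). Fkbp4, the immunophilin that competes with the product of Fkbp5 for the receptor complex, stood at 96.9 to 109 CPM in females, against 111 to 125 CPM in males (-0.13, SE 0.07, edgeR adjusted p = 0.815). Hspa8, a constitutive heat shock protein 70 gene, had a value of -0.22 (SE 0.13, edgeR adjusted p = 0.860).

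Genes of corticosteroid synthesis, inactivation and transport were mostly scarce in the paw. Of 13 listed, 5 passed the filter and none was called. Cyp17a1, a steroid hydroxylase and lyase, had 13.2 ± 4.81 CPM in females, against 9.69 ± 1.56 CPM in males, with a log2 fold change of 0.45 (SE 0.26) and an edgeR adjusted p of 0.859. H6pd, which supplies NADPH to the product of Hsd11b1, had 35.4 ± 12.5 CPM in females, against 39.3 ± 8.23 CPM in males (-0.15, SE 0.26, edgeR adjusted p = 0.999). Star and Cyp11a1, which start steroid synthesis, had 1.44 ± 0.296 and 3.17 ± 1.67 CPM in females, against 1.31 ± 0.413 and 2.86 ± 0.327 CPM in males. Hsd11b2, which inactivates corticosterone, had 3 to 7 counts per female library and 2 to 5 per male library. Cyp11b1, the last step of corticosterone synthesis, and Crh had no count in any library, which at 3 counts allows up to 0.12 to 0.179 CPM per library by counting error alone.

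Other glucocorticoid-induced genes went in both directions. Of 29 tested, 13 lay above 0 and 16 below (median log2 fold change -0.01). None was called by edgeR, and 6 of the 29 had an unadjusted p under 0.05 (6.53% of all tested genes). The sexes did not overlap for 3 genes higher and 2 genes lower in females (2.93% and 1.81% of all tested genes). Per1, a clock repressor that glucocorticoids induce, had 96.9, 81.3, 94.9 and 89.7 CPM in female replicates 1 to 4, against 54.2, 64.7, 61.5 and 47.4 CPM in male replicates 1 to 4, which put its log2 fold change at 0.67 (SE 0.11), with 0.128 as the edgeR adjusted p. Cebpb, an inducible bZIP factor, had 33.8, 38.9, 25.2 and 31.8 CPM in female replicates 1 to 4, against 47.7, 50.6, 53.7 and 50.5 CPM in male replicates 1 to 4 (-0.64, SE 0.13, edgeR adjusted p = 0.205). Neither overlapped between the sexes, and the pair lay in opposite directions. DESeq2 called both, with adjusted p of 7.34e-05 for Per1 and 0.000949 for Cebpb. It called no other of the 80 genes tested in the 6 lists, where it calls 0.651% of the genes with an adjusted p. Il1r2, the decoy receptor of interleukin 1, was also without overlap (39.5 to 62.3 CPM in females, 32.4 to 35.8 CPM in males), at 0.51 on the log2 scale (SE 0.13, edgeR adjusted p = 0.509). Foxo3, a forkhead factor of catabolic programmes, stood at 28.0 to 34.3 CPM in females and 37.6 to 43.0 CPM in males, with a value of -0.30 (SE 0.09, edgeR adjusted p = 0.616).

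Inflammatory genes known to be repressed by glucocorticoids lay mostly above 0. Of 15 tested, 13 lay above 0 and 2 below, with a median log2 fold change of 0.27. Over all tested genes, 52.7% lay above 0, with a median of 0.01. None of the 15 was called by edgeR, DESeq2 or limma-voom, and 2 had an unadjusted p under 0.05 by edgeR (6.53% of all tested genes). Tnf, which encodes tumour necrosis factor, had 4.42, 4.30, 3.75 and 4.28 CPM in female replicates 1 to 4, against 2.69, 1.76, 2.29 and 3.13 CPM in male replicates 1 to 4. Its sexes did not overlap, which held for 1 of the 15 and for 4.73% of all tested genes in either direction. The log2 fold change of Tnf was 0.76 (SE 0.20, edgeR adjusted p = 0.509). The monocyte chemokine gene Ccl2 had 46.2 ± 16.0 CPM in females, against 31.9 ± 5.22 CPM in males (0.54, SE 0.23, edgeR adjusted p = 0.761). The matrix metalloproteinase genes Mmp9 (1.04, SE 0.54) and Mmp13 (0.82, SE 0.53) overlapped between the sexes, with edgeR adjusted p of 0.815 and 0.896. Over the leave-outs of single libraries, the list's median ranged from 0.072 without female replicate 4, where 9 of the 15 lay above 0, to 0.40 without male replicate 3. Macrophage marker genes summed to 439 to 1473 CPM in females, highest in replicate 4, and to 824 to 911 CPM in males, with a median log2 fold change of -0.04 over the 8 genes. Mast cell genes summed to 79.0 to 295 CPM in females, again highest in replicate 4, and to 104 to 157 CPM in males (median 0.44 over 7 genes). Hair follicle genes summed to 340.0 to 1132 CPM in females, highest in replicate 3, and to 131 to 565 CPM in males (median 0.69 over 6 genes). The part of these cell types in the list's values was not tested.

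Of 7 other metal-handling genes, 3 lay above 0 and 4 below (median log2 fold change -0.01), and none was called. Mtf1, the metal-responsive factor that binds the metal response element, did not overlap between the sexes, at 24.7 to 31.2 CPM in females, against 32.8 to 36.2 CPM in males (-0.26, SE 0.09, edgeR adjusted p = 0.671). Such non-overlap held for 1 of the 7, against 4.73% of all tested genes in either direction. Mt4, the metallothionein of stratified epithelia, had 692, 1254, 1119 and 768 CPM in female replicates 1 to 4, against 1043, 635, 908 and 949 CPM in male replicates 1 to 4 (0.12, SE 0.23, edgeR adjusted p = 0.999). The zinc importer genes Slc39a10 (-0.08, SE 0.12) and Slc39a14 (0.03, SE 0.10) had edgeR adjusted p of 0.999. Of 10 immediate early genes, which also respond to handling and include no member, 3 lay above 0 and 7 below (median -0.08) and none was called. That median was 0.045 without male replicate 2, with 5 of 10 above 0, and -0.16 without male replicate 1, with 1 of 10 above 0. Junb (-0.22, SE 0.10, edgeR adjusted p = 0.764), Fos (-0.36, SE 0.35), Fosb (0.39, SE 0.42) and Egr2 (-0.11, SE 0.13) had the smallest p.

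The members did not vary as 1 block over the libraries. Correlations of log2 CPM over the 8 libraries are descriptions, since co-variation served to choose the genes, and no p is given. Over the 36 pairs of members Pearson's r ran from -0.86 to 0.96, with 16 pairs above 0, 20 below and a median of -0.17, beside a median of -0.0015 over all pairs of tested genes. Of all gene pairs, 0.129% had an r at or above the highest member pair, Tsc22d3 and Klf9. The libraries of a pair share their depth scaling and tissue makeup.

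A first set held Nr3c1, Klf9, Tsc22d3 and Zbtb16. Tsc22d3 and Klf9 had an r of 0.96 (Spearman's rho 0.90), and 0.91 without female replicate 1 and male replicate 2, the libraries farthest from the median of Tsc22d3. Nr3c1 and Klf9 had an r of 0.90 (rho 0.81), and 0.87 without female replicates 1 and 4. Tsc22d3 and Zbtb16 had an r of 0.91 (rho 0.90), and 0.65 without female replicate 1 and male replicate 2. Taken as deviations from the mean of each sex, these 3 pairs had r of 0.98, 0.98 and 0.94. Of the single sexes, 4 libraries each are too few for a correlation.

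The metallothioneins formed a second set that went against the first, most closely against Tsc22d3. Mt1 and Mt2 had an r of 0.94 (rho 0.90), and 0.82 without female replicate 2 and male replicate 2. Against Tsc22d3, Mt1 had an r of -0.83 (rho -0.76) and Mt2 one of -0.86 (rho -0.90). Without female replicate 1 and male replicate 2 those r were -0.72 and -0.92. Mt2 and Klf9 had an r of -0.78 (rho -0.74). Nr3c1 had an r of -0.65 with Mt1 and -0.61 with Mt2 (rho -0.45 and -0.50). Zbtb16 had -0.58 with Mt1 and -0.72 with Mt2 (rho -0.48 and -0.71), which became -0.39 and -0.41 without female replicate 3 and male replicate 2. So the libraries rich in receptor, Klf9 and Tsc22d3 transcripts, female replicates 1 and 4 and male replicate 2, were those poorest in the transcripts of both metallothioneins within each sex.

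Hsd11b1 and Fkbp5 had an r of 0.74 (rho 0.67). Both were lower on average in females, and as deviations from the mean of each sex their r was 0.23. Without female replicates 2 and 3, the libraries farthest from the median of Hsd11b1, it was 0.39, so the relation was weaker within the sexes and without those libraries. With single libraries left out the r of this pair ran from 0.60 to 0.88, and after removal of the relation with the fast muscle score it was 0.63. Over all 8 libraries both genes also varied with parts of the sets. Hsd11b1 had an r of 0.69 with Zbtb16 and -0.68 with Mt2, and as deviations from the sex means 0.69 with Nr3c1, 0.67 with Klf9 and -0.70 with Mt2. Without female replicates 2 and 3, the r of Hsd11b1 was 0.23 with Zbtb16 and 0.23 with Mt2. Fkbp5 had an r of 0.62 with Zbtb16 (0.59 as deviations from the sex means), and 0.10 without female replicate 3 and male replicate 2. For comparison, Nr3c1 and Zbtb16, named in the first set, had 0.60. Nr3c1 and Fkbp5 had an r of -0.14 over all libraries, 0.65 as deviations from the sex means and -0.77 after removal of the relation with the fast muscle score. Sgk1 had negative r with 7 of the other 8 members, from -0.05 with Mt1 to -0.70 with Zbtb16, and 0.19 with Mt2. Its r with Zbtb16 was -0.25 without female replicate 3 and male replicate 2, and that with Klf9 was 0.11 without female replicate 3 and male replicate 4. After removal of the relation with the fast muscle score, Sgk1 had -0.02 with Zbtb16, 0.47 with Klf9 and 0.57 with Nr3c1, but -0.43 with Fkbp5 and -0.67 with Mt1.

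**Figure D3:**
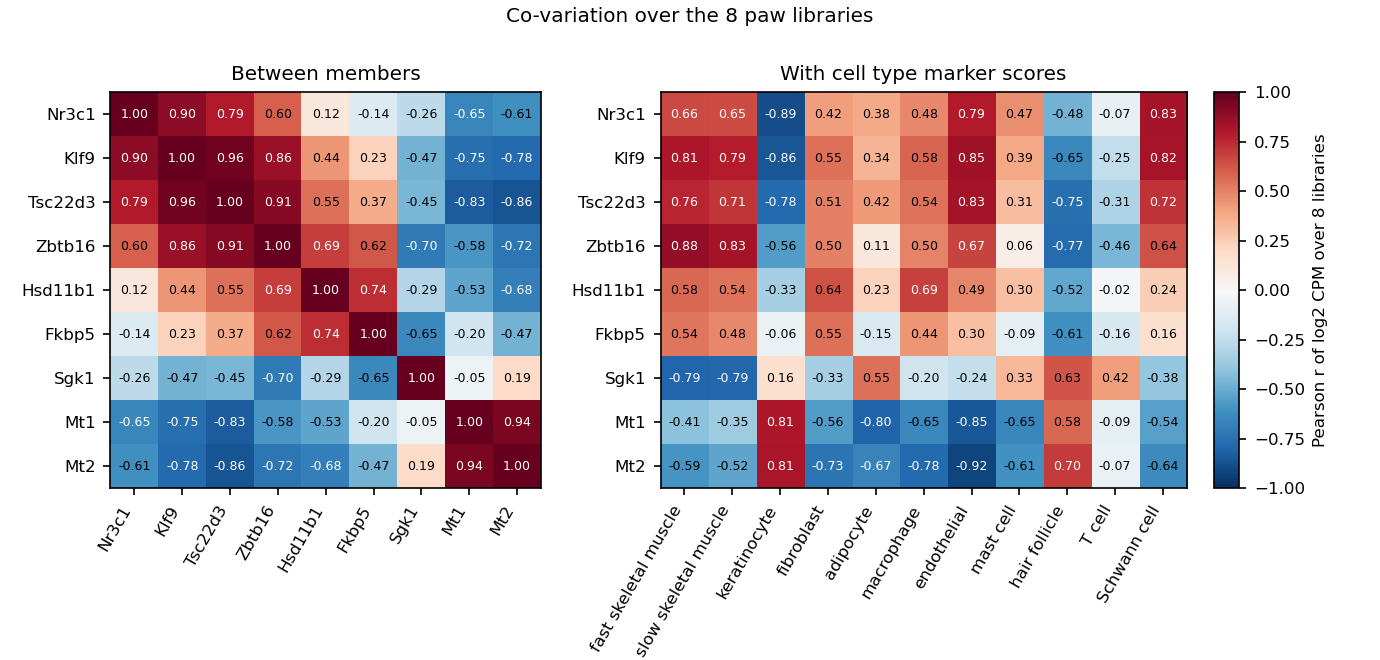
Pearson r of log2 CPM over the 8 libraries (colour and printed value), left between members, right between each member (rows) and the mean log2 CPM of marker genes of 11 cell types (columns). Nr3c1, Klf9, Tsc22d3 and Zbtb16 form a positive block, and Mt1 and Mt2 another of opposite sign. The blocks have opposite signs in every cell type column except that of T cells.

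Cell type markers moved with both sets. With the fast muscle score, r was 0.88 for Zbtb16, 0.81 for Klf9, 0.76 for Tsc22d3 and 0.66 for Nr3c1, and -0.79 for Sgk1 (rho 0.95, 0.95, 0.90, 0.69 and -0.74). Over all tested genes the median r was 0.04, with 3.87% at or above Zbtb16, 7.53% at or above Klf9 and 3.51% at or below Sgk1. Female replicate 3 and male replicate 2 lie farthest from the median score, and without them r was 0.79 for Zbtb16, 0.90 for Klf9, 0.80 for Tsc22d3, 0.75 for Nr3c1 and -0.46 for Sgk1. Without female replicate 3 alone, the library with almost no muscle transcript, they were 0.87, 0.93, 0.87, 0.78 and -0.61. Fkbp5 and Hsd11b1 had r of 0.54 and 0.58 with the score, which became -0.23 and -0.02 without the 2 farthest libraries, so those relations rest on them.

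With the keratinocyte score r was -0.89 for Nr3c1, -0.86 for Klf9 and -0.78 for Tsc22d3, against 0.81 for both Mt1 and Mt2. With the score of 5 endothelial genes (195 to 361 CPM summed in females, 214 to 349 CPM in males) it was 0.85 for Klf9, 0.83 for Tsc22d3 and 0.79 for Nr3c1, and -0.85 for Mt1 and -0.92 for Mt2. With the score of 5 Schwann cell genes (370 to 754 CPM in females, 324 to 761 CPM in males) it was 0.83 for Nr3c1 and 0.82 for Klf9. The part of tissue makeup in the co-variation of the members was not tested. Only the relation with the fast muscle score was removed, and those with the keratinocyte, endothelial and Schwann cell scores were left in. After removal of the straight-line relation with the fast muscle score, Tsc22d3 and Klf9 had an r of 0.91, Nr3c1 and Klf9 0.83, Tsc22d3 and Zbtb16 0.77, Mt1 and Mt2 0.95, and Tsc22d3 and Mt2 -0.79. Nr3c1 and Zbtb16, by contrast, had 0.05, where it was 0.60 before.

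**Figure D4:**
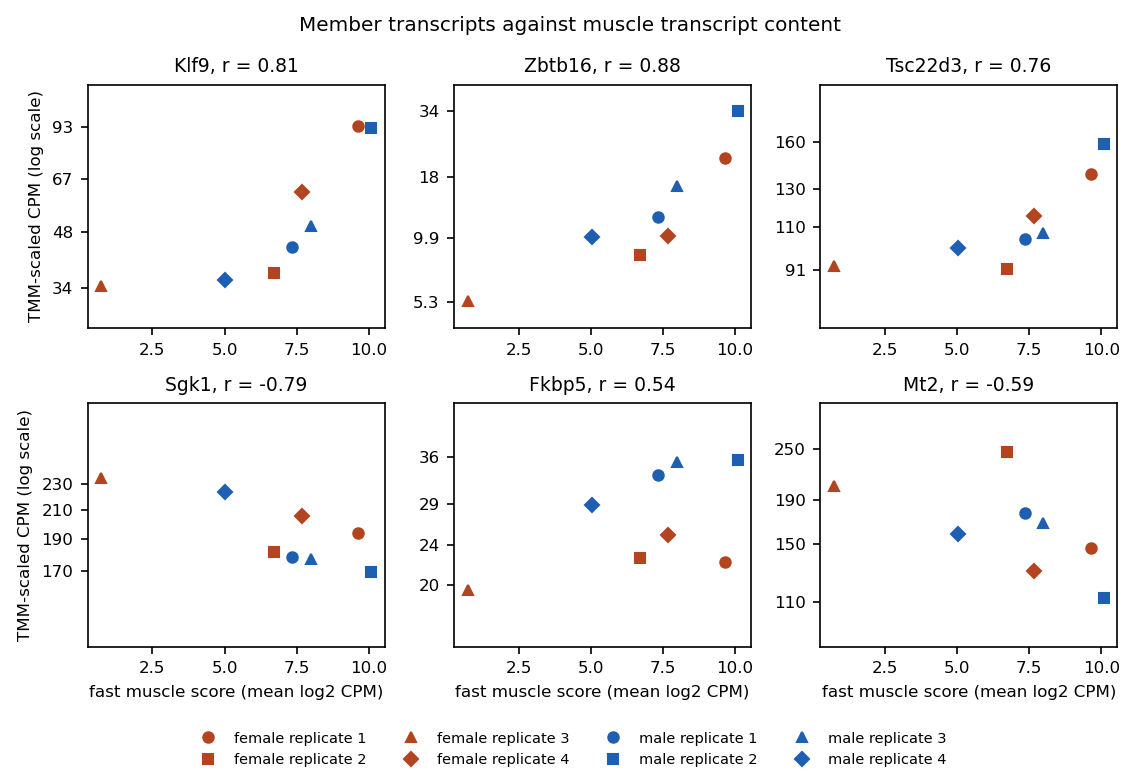
Level of 6 members (y axes, TMM-scaled CPM on log scales) against the fast muscle score (x axes, mean log2 CPM of 20 genes), 1 symbol per library, females in red and males in blue. Female replicate 1 and male replicate 2, with the highest scores of their sex (9.63 and 10.08), have the highest Klf9, Zbtb16 and Tsc22d3, while Fkbp5 in all 4 females is below all 4 males.

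Some genes of the related lists followed the same sets, and those named in this paragraph other than Mt4, H6pd and Cyp17a1 were chosen after their values were seen. Nr3c2, the mineralocorticoid receptor gene, had 4.94 to 12.7 CPM in females, highest in replicate 1, and 4.11 to 15.7 CPM in males, highest in replicate 2. Its r was 0.98 with Klf9 and 0.96 with Tsc22d3. Klf15 and Pdk4, glucocorticoid-induced regulators of muscle fuel use, had r of 0.94 and 0.90 with Tsc22d3, and 0.78 and 0.91 with the fast muscle score. Others of the glucocorticoid-induced list went the opposite way. Anxa1, which encodes the anti-inflammatory protein annexin A1, had an r of -0.97 with both Tsc22d3 and Klf9 and 0.80 with Mt2. Ddit4 and Sesn1, stress-induced inhibitors of growth signalling, had r of -0.71 and -0.65 with Tsc22d3. H6pd had an r of 0.90 with Tsc22d3 and -0.96 with Mt2, while Cyp17a1 had -0.85 with Tsc22d3 and 0.95 with Mt2. Mt4 followed the metallothionein set (0.91 with Mt1, 0.94 with Mt2, -0.95 with Tsc22d3). Over the 29 other glucocorticoid-induced genes the median r was 0.22 with Tsc22d3, 0.46 with Nr3c1 and 0.20 with Fkbp5, beside 0.01, 0.07 and 0.03 over all tested genes. It was -0.19 with Sgk1 (12 of 29 above 0), -0.34 with Mt1 (8 of 29) and -0.25 with Mt2 (8 of 29). The medians with Tsc22d3, Nr3c1 and Fkbp5 were 0.43, 0.40 and 0.33 over the 14 receptor partners. They were 0.37, 0.29 and 0.29 over the 10 immediate early genes, and -0.08, 0.17 and -0.13 over the 15 glucocorticoid-repressed genes. With the fast muscle score the median r was 0.12 over the 29 induced genes and 0.12 over the receptor partners. It was 0.33 over the immediate early and -0.08 over the repressed genes, beside 0.04 over all tested genes. The part of muscle in these medians was not tested.

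Genes most like each member were sought among 11896 other genes with a mean of at least 5 CPM, by Pearson's r over the 8 libraries. Nr3c1 was closest to Smarca2, an ATPase of chromatin remodelling complexes (r = 0.99), and Zfp367 (0.98). Hsd11b1 was closest to Dusp19 (0.98) and to Cpt2, a mitochondrial enzyme of fatty acid import (0.98). Fkbp5 was closest to Mrpl17, a protein of the mitochondrial ribosome (0.96), at 46.0 to 49.7 CPM in females and 53.2 to 54.7 CPM in males. Tsc22d3 was closest to Dnajc27 and to Snx19, a sorting nexin (0.99 each), Klf9 to Pitpnc1, a phosphatidylinositol transfer protein, and Ric8b (0.995 and 0.993), and Zbtb16 to Uqcrh, a subunit of respiratory complex III, and Mtap7d1 (0.995 each). Sgk1 had the loosest match, with Clmn (0.93) and Slc20a1, a phosphate transporter (0.92). Mt1 was closest to Nr2c2ap (0.97) and Bok, a BCL2 family gene (0.96), and Mt2 to 1810019D21Rik (0.99) and Rbbp5, a subunit of histone methyltransferase complexes (0.98). An r above 0.9 was reached by 717 genes with Klf9 and 616 with Tsc22d3, but by 21 with Fkbp5 and 4 with Sgk1.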

How the data were processed

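Per the labels' protocols, libraries were made with a stranded mRNA kit and sequenced as single-end reads of 50 bp. The tools named in the submitters' processing notes are bcl2fastq, TopHat2 and HTSeq, and the build is mm9. The sources used here give no versions, annotation or strand setting. For each library the authors deposited raw read counts of 22609 gene symbols, with no normalization. The counter's summary lines stayed out of all totals. Reads in no feature were 18.0 to 21.1% of uniquely placed reads and ambiguous reads 0.198 to 0.231%. Sequences and lengths come from GRCm38, a build other than mm9, and were matched by symbol.

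Genes were kept by filterByExpr (14790), scaled by TMM and tested, female over male, with edgeR 4.0.16 (glmQLFit and glmQLFTest, robust, sex as the sole term) in R 4.3.3. Benjamini-Hochberg adjustment ran over these 14790 genes, with calls under 0.05. SEs are absolute fold changes (log2) divided by the root of F. Log2 CPM used a prior count of 2. Replicates of a sex differed by far more than sampling noise (chi-square per degree of freedom of at least 13.2). Each library counted as 1 replicate, though this check cannot tell separate animals from several samples of the same animal. Alternatives were DESeq2 1.42.0, limma-voom (limma 3.58.1), other size factors, filters, a non-robust fit, a muscle covariate, the replicate number as a block, and each library left out. Leaving out female replicate 3 and male replicate 2 together was added after seeing the data, as were the alternatives for the relation with the muscle score.

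The members and lists were chosen with earlier results of these data known, so their p-values and counts of non-overlap are descriptive. Named were all members, up to 4 genes of each list (called genes first, then the smallest p) and the 2 genes most like each member. Among these most like genes, 1 is not reported here. Tests were not run on lists.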

Additional observations from a re-analysis of the deposited data

Results flagged for a closer look

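Library values of each member and list score were examined within each sex, 52 groups of 4 in all. In 3 groups 1 library was far from the rest; by chance about 1 in 20 groups would be. For Tsc22d3 that library was male replicate 2 (7.32 log2 CPM), with the remaining males at 6.65 to 6.74. For the T cell score it was female replicate 4 (0.77 log2 CPM), with the remaining females at 0.091 to 0.12. For the score of the corticosteroid supply list it was female replicate 3 (3.30 log2 CPM), with the remaining females at 3.40 to 3.41.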

How the results depend on the processing

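The number of genes called over the whole table was 14. It was 111 with DESeq2, 7 with the replicate block, 22 with the muscle covariate and without female replicate 3, and 9 without female replicate 3 and male replicate 2. With single libraries left out it ran from 8 (without male replicate 3 or male replicate 4) to 16. DESeq2 alone called a member, Fkbp5 (-0.58), whose log2 fold change lay between -0.63 and -0.49 under all 19 alternatives. Nr3c1, Hsd11b1 and Mt2 also kept their sign under all 19. Signs turned elsewhere, and the cause was not tested. Tsc22d3 had 0.0058 with the muscle covariate, 0.14 without female replicate 3 and male replicate 2, and -0.24 to 0.06 with single libraries left out. Klf9 had -2.5e-05 with limma-voom. With 1 or both of those libraries or any other single one left out, Klf9 ran from -0.32 to 0.56, Mt1 from -0.093 to 0.15, Zbtb16 from -1.20 to 0.034 and Sgk1 from -0.0088 to 0.22. The values of Zbtb16 at 0.034 and Sgk1 at -0.0088, and -0.06 for Mt1, are those without female replicate 3 and male replicate 2. Over the same leave-outs the list medians ran from -0.10 to 0.14 for the other glucocorticoid-induced and from -0.11 to 0.049 for the metal-handling genes, and from -0.16 to 0.14 for the immediate early genes. The median r of the members, -0.17, was -0.047 as deviations from the sex means, -0.058 after the muscle score was removed and -0.18 to -0.069 with single libraries left out. The median r with the muscle score, 0.58, was 0.13 without female replicate 3 and at most 0.66 with another single library left out. Same-numbered libraries did not deviate together (r of -0.31 to -0.09 over genes). Differently numbered ones had r of up to 0.77 (female replicate 1 with male replicate 2) and down to -0.76 (female replicate 1 with male replicate 4). Differences of that size can hide a pairing, so this check cannot decide whether the numbers pair the libraries. The block left Fkbp5 at -0.57 (edgeR adjusted p = 0.999). Counts of Hsd11b1 were low, at 96 to 262 per library, and the part of counting error in its spread was not tested.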
